A study of Mus musculus with 28 samples.

Results

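The genes described here are 10 carbonic anhydrase genes of the mouse, Car2, Car3, Car4, Car7, Car8, Car10, Car11, Car12, Car13 and Car14, out of 19946 genes measured in striatum. They were chosen by name, and each was read from 1 transcript cluster, a set of probes along 1 gene, annotated with that gene's symbol alone. Where a gene has several such clusters the one of highest mean is used, but each of the 10 has only 1. Another 6 carbonic anhydrase genes on the array, Car1, Car5a, Car5b, Car6, Car9 and Car15, are given for comparison.

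RNA came from punches of left and right striatum, pooled for each drug-naive mouse, and was measured on 28 arrays. The strains were C57BL/6J (B6) and B6.A/J congenics, B6 mice that carry a stretch of the A/J genome from 84 to 96 Mb. The study set them side by side because that stretch was linked to methamphetamine sensitivity. Batch 1 held 6 B6 littermates (2 B6 copies of the stretch) and 6 heterozygous congenics (1 A/J copy), all aged 41 to 68 days. In batch 2 were 8 homozygous congenics (2 A/J copies) of 52 to 57 days and 8 B6 controls of 61 to 63 days. The labels say that the batch 2 genotypes were not littermates, so age, breeding and genotype cannot be told apart there. Every group had equal numbers of females and males. Nothing in the labels limits the A/J copy to a cell type, since it is carried by every cell of the mouse. Heterozygous and homozygous congenics together are called carriers.

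Carbonic anhydrases are zinc enzymes that turn carbon dioxide and water into bicarbonate and a proton, and back. In brain they buffer the acid made by active neurons, and they supply the bicarbonate that leaves cells through GABA-A receptors and through anion exchangers. Car2, Car3, Car7 and Car13 encode cytosolic enzymes, Car4 an enzyme tethered to the outer face of the membrane by a lipid anchor, and Car12 and Car14 enzymes that span the membrane with the active site outside. Car8, Car10 and Car11 encode carbonic anhydrase-related proteins, which lack zinc-binding residues and have no such activity. Car8 protein binds the inositol trisphosphate receptor of cerebellar Purkinje cells, and Car10 protein is a secreted partner of neurexins, adhesion proteins of the presynaptic membrane.

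Only Car4 and Car10 of the 10 lie on the A/J stretch, by their order along chromosome 11 among RefSeq genes. Their promoter windows are shown because these are the members whose own promoter differs in origin between the groups. Each window runs from 250 bases before to 50 bases after a RefSeq start site in GRCm38.p6, a build of the C57BL/6J genome, so it is the B6 sequence. The A/J sequence is not used here. Capitals mark GC boxes (GGGCGG or CCGCCC) and TATA boxes (TATAAA or TTTATA), searched as letters on both strands.
Car4, chr11:84957504-84957803, + strand: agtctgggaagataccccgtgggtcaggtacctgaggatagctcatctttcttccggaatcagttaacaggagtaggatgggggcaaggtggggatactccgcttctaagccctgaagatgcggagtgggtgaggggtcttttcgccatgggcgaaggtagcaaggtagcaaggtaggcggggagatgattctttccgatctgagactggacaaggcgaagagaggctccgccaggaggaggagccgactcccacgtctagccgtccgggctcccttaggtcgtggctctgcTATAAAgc
Car10, upstream start, chr11:93098116-93098415, + strand: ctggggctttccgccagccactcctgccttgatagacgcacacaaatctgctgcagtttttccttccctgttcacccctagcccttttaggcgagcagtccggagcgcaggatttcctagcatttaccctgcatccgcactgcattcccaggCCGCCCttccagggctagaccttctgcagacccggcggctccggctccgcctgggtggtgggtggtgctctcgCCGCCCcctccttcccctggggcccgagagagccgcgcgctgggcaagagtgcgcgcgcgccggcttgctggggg
Car10, downstream start, chr11:93099040-93099339, + strand: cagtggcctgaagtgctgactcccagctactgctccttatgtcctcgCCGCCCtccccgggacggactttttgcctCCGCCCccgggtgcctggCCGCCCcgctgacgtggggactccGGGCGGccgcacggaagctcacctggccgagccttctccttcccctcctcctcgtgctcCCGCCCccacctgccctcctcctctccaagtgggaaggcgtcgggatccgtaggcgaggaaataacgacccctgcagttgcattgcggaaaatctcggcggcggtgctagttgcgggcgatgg

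The windows differed in letters. The Car4 window holds 1 TATA box and 0 GC boxes, and 15 CpG dinucleotides. Its TATAAA lies within the last 50 bases, after the start site and not before it. The Car10 windows hold 2 and 5 GC boxes, 0 TATA boxes, and 22 and 27 CpG dinucleotides. Of the 32841 windows of this length in RefSeq, 35.7% hold a GC box and 13.6% a TATA box at any position. The median window holds 7 CpG dinucleotides. No window of these 3 holds an E-box (CACGTG, found in 7.15% of all windows) or a CCAAT box (37.4%). The TGACG core of cyclic AMP response elements occurs once in the downstream Car10 window and in 20.8% of all windows. Windows were found for 6 of the 10 members, Car4, Car7, Car10, Car11, Car12 and Car14. A match is a description of letters and not a tested site.

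Values are log2 expression after robust multi-array averaging (RMA) and removal of batch effects by the study's authors with ComBat. ComBat sets the batches to a shared level, so levels are compared only within a batch, and a level of 1 gene is not set against that of another because probes differ in brightness. Markers of spiny neurons, the main neurons of striatum, averaged 11.39 ± 0.05 (SD, n = 6) for littermates, 11.41 ± 0.06 (n = 6) for heterozygotes, 11.40 ± 0.22 (n = 8) for B6 controls and 11.39 ± 0.17 (n = 8) for homozygotes. B6 control 1 stood apart from the other arrays. Its mean over 20 hepatocyte genes was 11.07, the highest of its group, and its spiny neuron mean was 10.90, the lowest of its group. Results that rest on B6 control 1 are given with and without it.

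The comparison of carriers with B6 mice asked whether any of the 10 genes differs with the A/J stretch. None did. Car4 and Car10, which lie on the stretch, differed by -0.01 and 0.08 log2 between 14 carriers and 14 B6 mice. In a limma model holding batch and sex, with Benjamini-Hochberg adjustment over all 19946 genes, 0 of 10 members had an adjusted p under 0.05, against 0.0201% of all genes (4 genes). At an unadjusted p under 0.05 stood 0 of 10 members, against 5.3% of all genes. In the authors' deposited table the p of the members ran from 0.180 for Car14 to 0.997 for Car3, and the q given for 7 of them from 0.788 to 0.894. Of the 10 differences 6 were above 0 and 4 below, with a median of 0.01 log2, while the median over all genes was also 0.01. The smallest adjusted p of a member was 0.964.

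Car4 encodes the membrane-anchored enzyme found on brain capillaries and on neurons. Its lowest, median and highest log2 levels were 9.37, 9.62 and 9.74 in littermates and 9.44, 9.58 and 9.95 in heterozygous mice. In batch 2 they were 9.35, 9.58 and 9.77 in B6 controls and 9.24, 9.58 and 9.82 in homozygous mice. The highest array of all was heterozygous congenic 6 and the lowest homozygous congenic 3, and carriers and B6 mice overlapped in both batches. The fitted difference was -0.01 log2 (SE 0.062), a fold of 0.994 with a 95% interval of 0.910 to 1.09, and 7 of 14 carriers lay above the B6 mean of their batch. In heterozygous mice it was 0.04 (SE 0.096) and in homozygous mice -0.04 (SE 0.083).

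Car10, the neurexin partner, varied far more between mice. Its lowest, median and highest log2 levels were 9.07, 9.68 and 10.27 in littermates and 9.47, 9.70 and 10.22 in heterozygous mice. In batch 2 they were 8.93, 9.64 and 10.18 in B6 controls and 9.09, 9.71 and 10.27 in homozygous mice. Within batch 2 the homozygous mice fell apart into 4 arrays from 10.02 to 10.27 and 4 from 9.09 to 9.41, with B6 controls spread across the same range. The fitted difference of carriers was 0.08 log2 (SE 0.142), a fold of 1.05 with a 95% interval of 0.862 to 1.29, and 7 of 14 carriers lay above their B6 mean. It was 0.06 (SE 0.222) in heterozygous and 0.09 (SE 0.192) in homozygous mice. With each array left out in turn it ran from 0.03 to 0.14 in carriers, from -0.04 to 0.21 in heterozygous mice and from 8.4e-05 to 0.17 in homozygous mice.

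Genes of the stretch that were called give a scale for these intervals. They were named because they passed in these same data. Their SE was smaller than that of Car4 or Car10, so they do not show what could be detected for the members. Cuedc1, with a ubiquitin-binding CUE domain, was higher in carriers by 0.29 log2 (SE 0.040, limma, adjusted p = 0.00183), and Tob1, an antiproliferative protein, was lower, at -0.24 (SE 0.036, limma, adjusted p = 0.0024). In heterozygous mice neither gene was called (limma, adjusted p = 0.9999 for each). In homozygous mice Tob1 was called (limma, adjusted p = 0.000556) and Cuedc1 was not (0.0905). The 95% interval of Car4 in carriers, -0.14 to 0.12 log2, contains neither the 0.29 of Cuedc1 nor the -0.24 of Tob1. That of Car10, -0.21 to 0.37, contains the first and not the second, so a rise in Car10 as large as that of Cuedc1 was within its interval. The study's authors masked 145 probes over coding variants of the stretch before averaging. By probe set numbers 0 masked probe sets lie between the cluster of Car4 or of Car10 and the next cluster, though the nearest to Car10 carries the number just below its own.

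**Figure D1:**
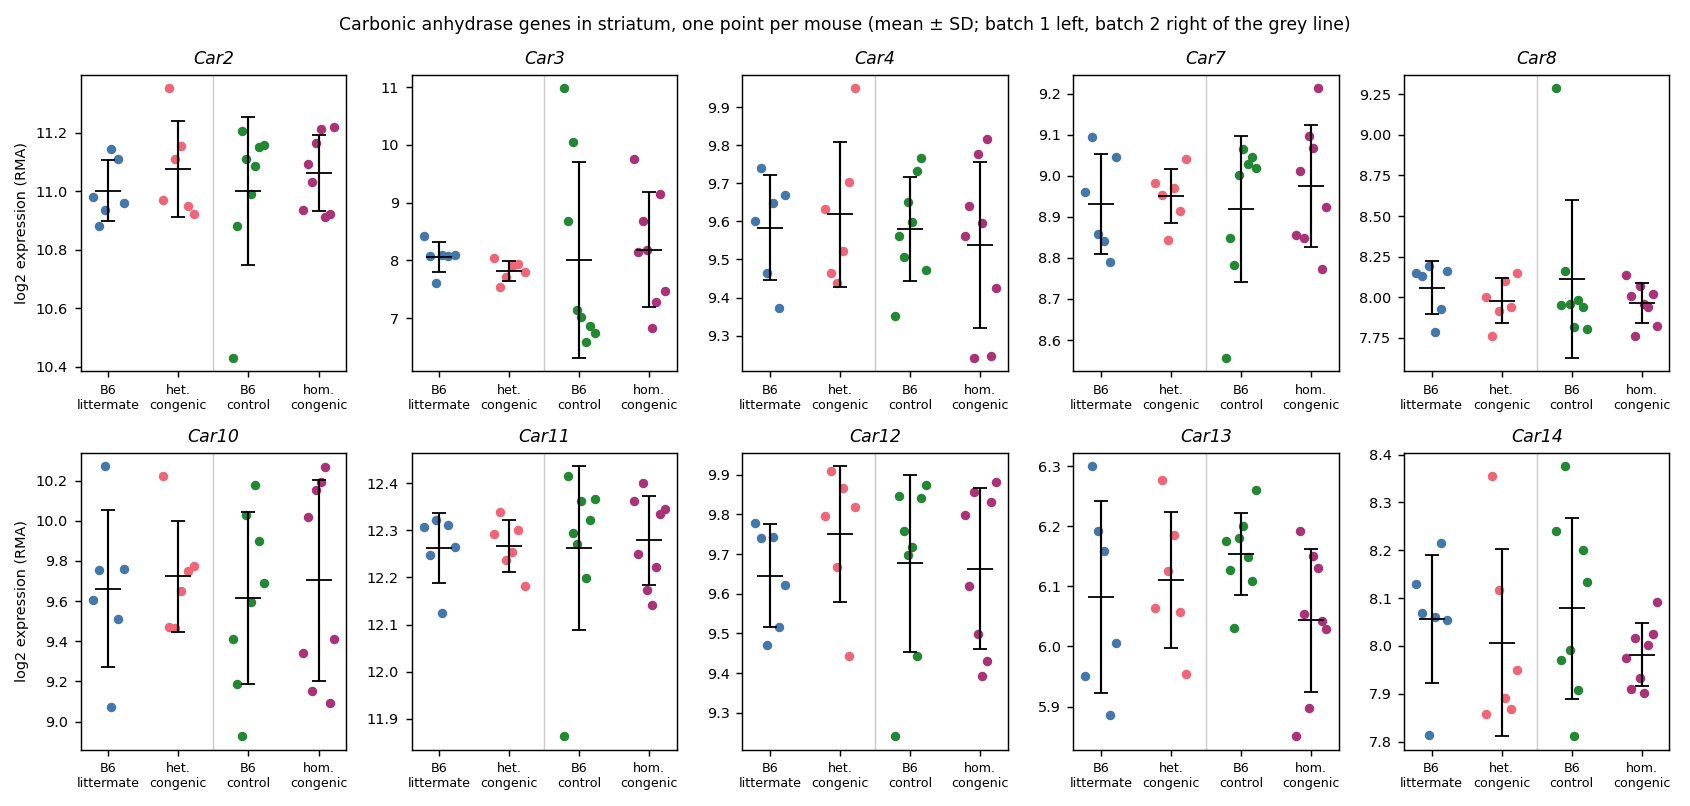
Log2 expression (RMA) of each of the 10 genes, 1 panel a gene with its own vertical scale, for 6 B6 littermates and 6 heterozygous congenics (batch 1) and 8 B6 controls and 8 homozygous congenics (batch 2). Points are mice and bars the mean ± SD; the groups overlap in every panel, and B6 control 1, the leftmost B6 control point, lies apart for Car2 (10.43), Car8 (9.29) and Car11 (11.86).

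Among the cytosolic enzymes, Car2 is the abundant brain form, found in oligodendrocytes. Its log2 level was 11.00 ± 0.10 (SD) in littermates and 11.08 ± 0.16 in heterozygous mice. For batch 2 it was 11.00 ± 0.25 among B6 controls and 11.06 ± 0.13 among homozygous mice. B6 control 1 was its lowest array, at 10.43, against 10.88 for the next. The difference of carriers was 0.07 log2 (SE 0.059), and 0.02 (SE 0.046) without B6 control 1. Car7, an enzyme of neurons, had 8.93 ± 0.12 in littermates and 8.95 ± 0.07 in heterozygous mice. Batch 2 gave 8.92 ± 0.18 for B6 controls and 8.97 ± 0.15 for homozygous mice. It differed by 0.04 log2 (SE 0.051), and by 0.0086 without B6 control 1.

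Car3, a cytosolic enzyme abundant in liver, muscle and fat, had the widest spread of the 10. In batch 1 it ran from 7.60 to 8.42 in littermates and from 7.55 to 8.04 in heterozygous mice. In batch 2 it ran from 6.59 to 10.98 in B6 controls and from 6.83 to 9.76 in homozygous mice, and B6 control 1 was the highest array. B6 controls of 63 days ran from 7.14 to 10.98 and those of 61 days from 6.59 to 7.03. Homozygous mice of 57 days ran from 8.15 to 9.76 and those of 52 days from 6.83 to 9.14. The part of age in this spread was not tested. The 95% interval of the Car3 difference in carriers, -0.77 to 0.77 log2, is wide around an estimate of 0.0015. All 6 heterozygous mice lay below the mean of their littermates, by -0.24 log2 on average, though both ranges overlapped. That difference had an SE of 0.580 with the spread of all 28 arrays in the fit. With batch 1 arrays alone limma gave an unadjusted p of 0.0147 and an adjusted p of 0.999. In homozygous mice the difference was 0.18 (SE 0.502), and 0.61 (SE 0.417) without B6 control 1.

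Car13, a cytosolic enzyme, had the smallest p of the 10 in a genotype comparison. Its mean over all arrays was 6.10 log2, rank 16519 of 19946 genes, against 7.83 for the median gene. Probes differ in brightness, and whether Car13 stood above background was not tested. Its log2 levels ran from 6.03 to 6.26 in B6 controls and from 5.85 to 6.19 in homozygous mice, with 1 of 8 homozygous mice above the B6 mean. The difference was -0.11 log2 (SE 0.056, limma, unadjusted p = 0.0598, adjusted p = 0.796), a fold of 0.926 with a 95% interval of 0.855 to 1.00. In heterozygous mice the difference pointed the other way, at 0.03 (SE 0.065). The difference between these effects was -0.14 (SE 0.086, limma, adjusted p = 0.996).

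The membrane-spanning enzymes gave small differences as well. Car12 was at 9.65 ± 0.13 (SD) in littermates and 9.75 ± 0.17 in heterozygous mice. In batch 2 B6 controls had 9.68 ± 0.22 and homozygous mice 9.66 ± 0.20, so all 4 groups overlapped. It differed by 0.10 log2 (SE 0.102) in heterozygous mice, where 5 of 6 lay above the littermate mean, and by -0.01 (SE 0.088) in homozygous mice. Car14, an enzyme of neurons and glia, had 8.06 ± 0.13 in littermates and 8.01 ± 0.20 in heterozygous mice. Batch 2 gave 8.08 ± 0.19 for B6 controls and 7.98 ± 0.07 for homozygous mice. It had the smallest p of the 10 in carriers against B6, with a difference of -0.08 log2 (SE 0.053, limma, adjusted p = 0.964) and 3 of the 14 carriers higher than their batch's B6 mean.

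Of the related proteins without enzyme activity, Car8 had 1 array far from the rest. It lay from 7.79 to 8.19 in littermates, from 7.76 to 8.15 in heterozygous mice and from 7.76 to 8.14 in homozygous mice. In B6 controls it lay from 7.81 to 8.16 in 7 arrays and at 9.29 in B6 control 1. Its difference in carriers was -0.12 log2 (SE 0.097) with this array and -0.03 (SE 0.048) without it, and in homozygous mice -0.15 (SE 0.131) and 0.01 (SE 0.065). Car11, a relative of Car10, varied least, with 12.26 ± 0.07 (SD) in littermates and 12.27 ± 0.06 in heterozygous mice of batch 1, and 12.26 ± 0.17 in B6 controls and 12.28 ± 0.09 in homozygous mice of batch 2. Its difference in carriers was 0.01 log2 (SE 0.042), with a 95% interval of 0.950 to 1.07 in fold.

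**Figure D2:**
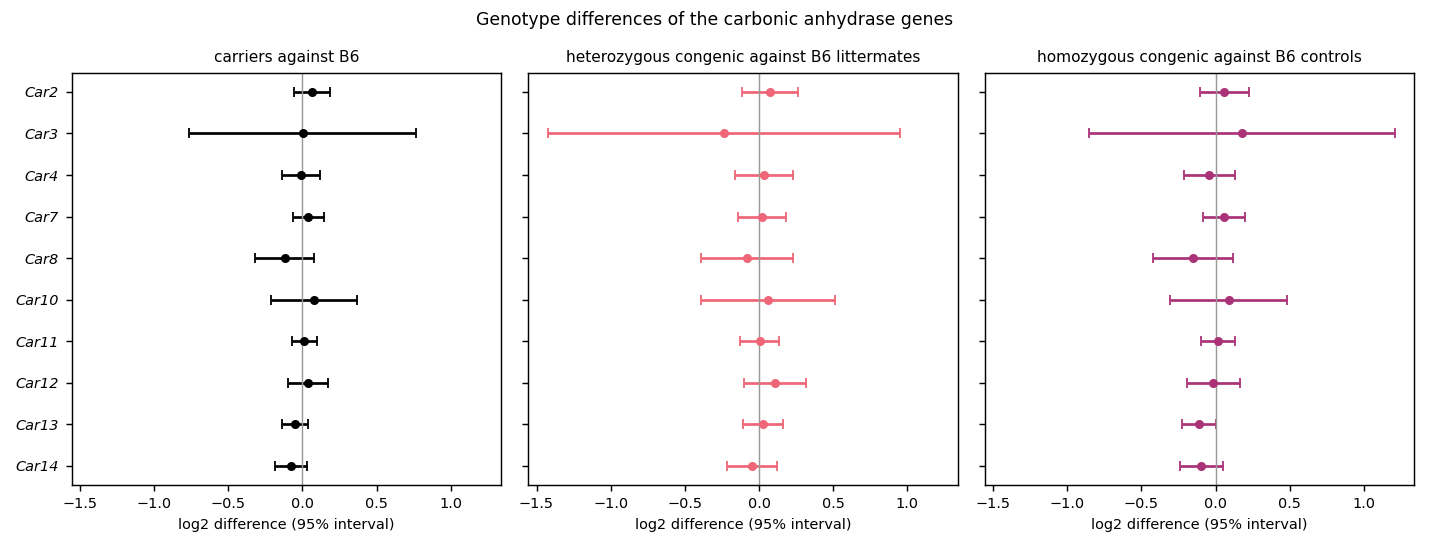
Log2 differences (horizontal axis, with 95% intervals from limma) of the 10 genes in carriers against B6, heterozygous congenics against B6 littermates and homozygous congenics against B6 controls. Every interval holds 0; that of Car3 is the widest and that of Car11 among the narrowest.

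The single and the double A/J copy were also taken apart. In heterozygous mice 0 of 10 members were called by limma (0% of all genes), and 0 of 10 had an unadjusted p under 0.05 (3.68% of all genes). In homozygous mice the counts were 0 of 10 (0.00501% of all genes, 1 gene) and 0 of 10 (6.24%). The difference between both effects was called in 0 of 10 (0% of all genes), with 0 of 10 at an unadjusted p under 0.05 (5.07%). Females and males differed in 0 of 10 (0.0551% of all genes, 11 genes), with 0 of 10 at an unadjusted p under 0.05 (7.34%). The smallest p by sex was that of Car2, at -0.12 log2 in females (SE 0.061, limma, unadjusted p = 0.0553, adjusted p = 0.694).

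Genes that work beside carbonic anhydrases gave no call in any of these 4 genotype comparisons by limma. For carriers against B6, the other carbonic anhydrases were higher in 5 of 6 and bicarbonate transporters and anion exchangers in 8 of 15. Proton and lactate transporters and chloride cotransporters were higher in 9 of 13. Soluble adenylyl cyclase (which bicarbonate activates), proton sensors and aquaporins were higher in 6 of 10, and neurexins and neuroligins, the setting of Car10, in 5 of 5. Of all genes 59.2% were higher in carriers. In heterozygous mice 1 of 5 neurexins and neuroligins was higher and 4 were lower, with 51.6% of all genes higher. In carriers the medians of these lists lay between 0.0093 and 0.04 log2, against 0.01 for all genes. At an unadjusted p under 0.05 in carriers stood Slc26a6, an anion exchanger, at 0.06 log2 (SE 0.029, limma, adjusted p = 0.924). Gpr65, a proton-sensing receptor, stood there too, at -0.12 (SE 0.049, limma, adjusted p = 0.878). They were 1 of 15 and 1 of 10 of their lists, with 0 from the other lists, against 5.3% of all genes. In homozygous mice Aqp4, the water channel of astrocyte endfeet, was at 0.12 log2 (SE 0.053) and Nlgn1, a postsynaptic partner of neurexins, at 0.14 (SE 0.066), with limma adjusted p of 0.735 and 0.774. Gpr65 at -0.16 (SE 0.066, adjusted p = 0.728) and Slc26a6 at 0.08 (SE 0.039, adjusted p = 0.776) were under an unadjusted p of 0.05 there too. By list these were 1 of 15 bicarbonate transporters and anion exchangers and 1 of 5 neurexins and neuroligins. Aqp4 (higher) and Gpr65 (lower) came from a list of 10. Of all genes 6.24% were under that p in homozygous mice. In heterozygous mice Aqp4 was at -0.0033, Nlgn1 at -0.0018, Gpr65 at -0.07 and Slc26a6 at 0.04. For the difference between both effects Slc9a7, of the proton and lactate transporter list, was at 0.21 log2 (SE 0.089, limma, unadjusted p = 0.0277, adjusted p = 0.940). It was 1 of 13 in that list, against 5.07% of all genes. Of the other carbonic anhydrases Car6, the secreted salivary form, had the smallest p in carriers, at 0.07 log2 (SE 0.038, limma, adjusted p = 0.942), and Car1, the red cell form, differed by -0.02 (SE 0.083). Car9, a membrane form induced by low oxygen, differed by 0.0054 (SE 0.035). The means of Car6, Car1, Car9 and Gpr65 were 5.47, 6.90, 6.34 and 6.12 log2, against 7.83 for the median gene.

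What separated the 10 genes was how much each varied between mice of the same group. Car3 had a within-group SD of 1.07 log2, at or above that of 99.8% of genes, and Car10 one of 0.417 (98.1%). The median gene had an SD of 0.103. Car8 had an SD of 0.289 (96.8%), which was 0.135 (86.1%) without B6 control 1. Car12 (0.190, 93.0%), Car2 (0.178, 91.6%) and Car4 (0.177, 91.5%) followed. Car11 had 0.115 (63.6%), and 0.0767 (24.9%) without B6 control 1. The members' values were therefore set against 13 lists of cell type markers, each array taken as its deviation from its group mean, so that neither genotype nor batch level enters.

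Of the 130 pairs of a member and a list, 11 had an adjusted p under 0.05 by Spearman's rho (100000 permutations within groups, Benjamini-Hochberg over the 130) and 20 by Pearson's r, with 10 pairs in both. The 11 pairs are 8.46% of the members' pairs, and their smallest absolute rho was 0.55. Over all genes 5.04% of pairs with the lists had an absolute rho at least that large. By rho the count over the 10 members is thus near that of genes at large, and for r no such share was computed. The 11 pairs by rho tied Car10, Car4 and Car7 to cortical and thalamic neuron markers and Car12 and Car11 to spiny neuron markers. They tied Car2 to oligodendrocyte markers and Car3 to hepatocyte markers. They set Car10 against spiny neuron, interneuron and hepatocyte markers and Car7 against hepatocyte markers. In whole tissue, fewer cells of a type and less RNA per cell cannot be told apart. All values of an array also share its RNA, its normalization and the cut of its punch. The part of these in the relations was not tested.

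Car10 rose and fell with the cortical and thalamic neuron list (rho 0.89, r 0.91, permutation p = 1e-05 for each, the smallest they can give, adjusted p = 0.0013 and 0.00065). As few as 0.196% of all genes had a rho with this list as high. The relation was present in batch 1 (rho 0.65) and in batch 2 (rho 0.93), and r was 0.88 without the arrays farthest from the median of the list, homozygous congenic 7 and B6 control 3. The list's members did not act alike. Slc17a7, the vesicular glutamate transporter of cortical neurons, had a rho of 0.96 with Car10, the cortical transcription factors Tbr1 and Neurod6 0.92 and 0.81, and Rorb, of cortical layer 4 and thalamus, 0.88. Emx1, another cortical transcription factor, had 0.37, below the 0.45 of the thalamic marker Slc17a6. Lef1, Tcf7l2 and Prkcd, also thalamic, had -0.16, -0.45 and -0.57, so the markers did not divide cleanly by cortex and thalamus.

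Against the neurons of striatum itself, Car10 ran the other way. Its rho with the spiny neuron list was -0.67 (r -0.47, permutation p = 0.00143 and 0.0274, adjusted p = 0.0232 and 0.112), and -0.80 without B6 control 1 (adjusted p = 0.00455). All 11 spiny neuron markers had a negative rho with Car10, from -0.67 for the dopamine receptor gene Drd2 to -0.47 for Tac1, the substance P precursor. By batch rho was -0.43 and -0.79, and 0.642% of all genes had a rho as low. With interneuron markers rho was -0.55 (r -0.54, permutation p = 0.00285 and 0.00415, adjusted p = 0.0344 and 0.0385). By batch it was -0.43 and -0.66, r without B6 controls 1 and 2 was -0.64, and 0.797% of all genes had a rho as low. With hepatocyte markers it was -0.65 (r -0.60, permutation p = 0.0009 and 0.00174, adjusted p = 0.0167 and 0.0251), by batch -0.42 and -0.69. Without B6 controls 1 and 3 that r was -0.61 and the adjusted p of rho 0.0801, and over all arrays 2.94% of all genes had a rho as low.

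The genes whose pattern over the 28 arrays was most like that of Car10 were Olfm1 (rho 0.97), a secreted olfactomedin of neurons, Slc17a7 (0.96) and Kcnj3 (0.96), a G protein-gated potassium channel subunit. Without B6 control 1 these values were 0.98, 0.95 and 0.95.

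Car7 and Car4 were also tied to the cortical and thalamic list. Car7 had a rho of 0.69 with the cortical and thalamic list (r 0.71, permutation p = 0.00019 and 0.00011, adjusted p = 0.00494 and 0.00286), with 0.43 in batch 1, 0.73 in batch 2 and an r of 0.65 without the 2 arrays named above. Car4 had a rho of 0.60 (r 0.61, permutation p = 0.00291 and 0.00241, adjusted p = 0.0344 and 0.0313), with 0.27 and 0.77 by batch. Without those 2 arrays its r was 0.57 and the adjusted p of rho 0.0632. Such values were common among genes, since 3.77% of all genes had a rho with this list as high as that of Car7 and 6.64% as high as that of Car4. For each of both genes 6 of the 9 markers were positive and 3 negative, the latter again Lef1, Tcf7l2 and Prkcd. They ran from -0.53 for Prkcd to 0.76 for Rorb with Car7 (median 0.37). With Car4 they ran from -0.42 for Prkcd to 0.66 for Slc17a7 (median 0.36). The cortical Emx1 had 0.37 with Car7 and 0.24 with Car4, and the thalamic Slc17a6 had 0.30 and 0.36. Among the members, rho was 0.77 between Car4 and Car7, 0.71 between Car7 and Car10 and 0.57 between Car4 and Car10, as a description over 28 arrays that share RNA and normalization. In batch 1 and in batch 2 without B6 control 1, Car4 and Car7 had 0.76 and 0.77.

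Although Car4 is a known enzyme of capillaries, its rho with endothelial and pericyte markers was -0.21 (r -0.11, adjusted p = 0.523 for rho), with 4 of 11 markers above 0, from -0.31 for Tek to 0.23 for Flt1. The patterns most like Car4 were those of Tmem59l (rho 0.85), Clstn1 (0.84), a calsyntenin of synapses, and Ptprs (0.83), a receptor phosphatase of axons. For Car7 they were Pcnx2 (0.87), Cmip (0.86) and Dusp3 (0.86), of which Dusp3 had 0.75 without B6 control 1. Car7 also ran against the hepatocyte list (rho -0.62, r -0.78, permutation p = 0.00253 and 9e-05, adjusted p = 0.0344 and 0.00286). Without B6 control 1 that rho was -0.53 (adjusted p = 0.0933), by batch it was 0.13 and -0.79, and r was -0.61 without B6 controls 1 and 3, so it rests on batch 2 and in part on these arrays. Over all arrays 4.43% of all genes had a rho with this list as low.

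**Figure D3:**
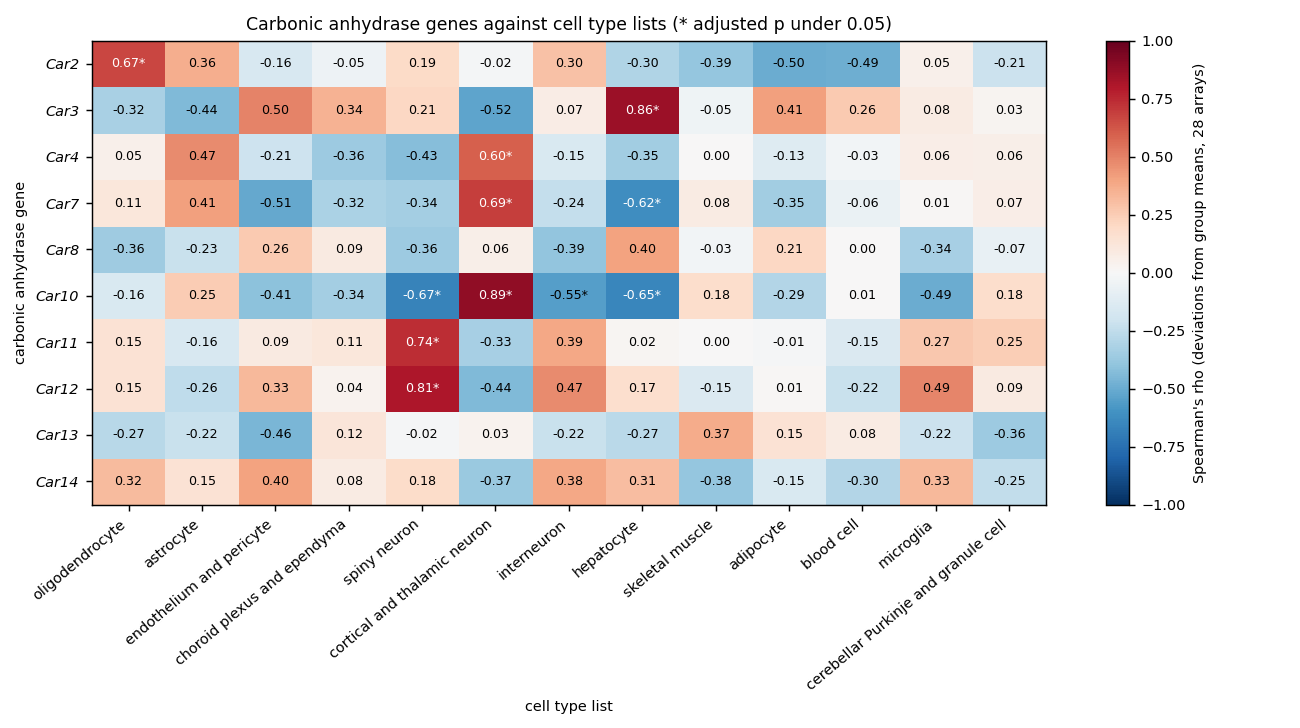
Spearman's rho (colour and number) of each of the 10 genes (rows) with the mean of each of 13 cell type lists (columns), over 28 arrays taken as deviations from their group means; a star marks an adjusted p under 0.05. Car10 shows 0.89 with cortical and thalamic neurons and -0.67 with spiny neurons, and Car12 shows 0.81 with spiny neurons.

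Car12 and Car11 were the members that followed the spiny neurons. Car12 had a rho of 0.81 with the spiny list (r 0.81, permutation p = 4e-05 and 2e-05, adjusted p = 0.0026 and 0.000867), and 0.76 without B6 control 1 (adjusted p = 0.0107). All 11 markers were positive, from 0.52 for Pdyn, the dynorphin precursor, to 0.81 for Drd2. By batch rho was 0.27 and 0.89, and r without homozygous congenic 6 and B6 control 1 was 0.72. Of all genes 0.341% had a rho with this list as high. Its nearest patterns were Sorcs2 (0.82), a sorting receptor, Bcl11b (0.81), a transcription factor of spiny neurons, and Necab2 (0.81), a calcium-binding protein of striatum. In batch 1 these values were 0.49, 0.45 and 0.20, and without B6 control 1 they were 0.78, 0.79 and 0.76. Without that array Pde7b (0.78) stood among the 3 nearest in place of Necab2.

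Car11 had a rho of 0.74 with the spiny list (r 0.83, permutation p = 0.0003 and 0.00022, adjusted p = 0.0065 and 0.00409), again with all 11 markers positive, from 0.33 for Pdyn to 0.79 for Adcy5, the adenylyl cyclase of striatum. The relation was not present in batch 1 (rho -0.15) and was 0.81 in batch 2. Without B6 control 1 rho was 0.63 (adjusted p = 0.0443), and without homozygous congenic 6 and B6 control 1 r was 0.65 and the adjusted p of rho 0.0589. Of all genes 0.777% had a rho as high as that of Car11 over all arrays. Lingo3 (0.84), Cnst (0.84) and Dock4 (0.83) were nearest in pattern. In batch 1 these values were 0.48, 0.71 and 0.47, and without B6 control 1 they were 0.82, 0.78 and 0.80. Car11 and Car12 had a rho of 0.67 with each other, of -0.10 in batch 1 and 0.92 in batch 2 without B6 control 1. Car10 and Car12 had -0.55.

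Car2 followed oligodendrocyte markers (rho 0.67, r 0.75, permutation p = 0.00011 and 0.00016, adjusted p = 0.00357 and 0.00347), with 10 of 11 markers positive. Ermn, a cytoskeletal protein of myelinating cells, was highest at 0.80, and Mbp, myelin basic protein, was at 0.66. Gjb1, a connexin of these cells, was below 0 at -0.10, and at 0.11 without B6 control 1. With the list, the rho of Car2 was 0.40 and 0.84 by batch and 0.58 without B6 control 1 (adjusted p = 0.0368). Its r was 0.67 without B6 littermate 6 and B6 control 1. A rho as high was found in 1.05% of all genes. Anln (rho 0.89), a septin-binding protein of myelin, Dock1 (0.89) and Gpr37 (0.88), a receptor of oligodendrocytes, had the nearest patterns, each at 0.86 or above without B6 control 1. Car14 did not pass with any list, and its rho with oligodendrocytes was 0.32 (adjusted p = 0.311). Its nearest patterns were Tex261 (0.73), Clmn (0.70) and Tns2 (0.69), at 0.67, 0.65 and 0.65 without B6 control 1. Without that array 3 other genes were nearest, Slc6a9 (0.78), a glycine transporter, Ttyh2 (0.76) and Phf1 (0.76).

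Car3 followed hepatocyte markers in batch 2. Because that list was fixed with the liver transcripts of batch 2 already known, its p-values and counts are a description and no independent test. Over all arrays rho was 0.86 and r 0.98 (permutation p = 0.00011 and 1e-05, adjusted p = 0.00357 and 0.00065), and all 20 markers were positive, from 0.80 for Fgb, fibrinogen beta, to 0.93 for Hpd, of tyrosine breakdown. In batch 2 rho was 0.99 and in batch 1 it was -0.31, where the hepatocyte mean had an SD of 0.05 in littermates and 0.04 for heterozygous mice, against 1.62 for B6 controls and 0.88 for homozygous mice. Within B6 controls the hepatocyte mean ran from 7.47 to 11.07 at 63 days and from 6.85 to 7.44 at 61 days. Permutations within groups did not keep these ages apart. Without B6 controls 1 and 3 the r of Car3 with the list was 0.96, and over all arrays 0.948% of all genes had a rho as high. Its rho was -0.05 with skeletal muscle markers (adjusted p = 0.940) and 0.41 with adipocyte markers (adjusted p = 0.179). The nearest patterns were the liver genes Cyp2d26 (0.96), a cytochrome P450, and Apcs (0.94), serum amyloid P, with Vsig4 (0.94), a receptor of resident macrophages.

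Car8, known from Purkinje cells, had a rho of -0.07 with cerebellar markers (adjusted p = 0.897). The punches were of striatum, not cerebellum, so that value says nothing about Car8 in Purkinje cells. By rho Car8, Car13 and Car14 passed with none of the 13 lists, the smallest adjusted p among them being 0.0999. By r, Car8 passed with the hepatocyte list (r 0.68, rho 0.40, permutation p = 0.00407 and 0.0423, adjusted p = 0.0385 and 0.179), and without B6 control 1 that r was 0.36 (adjusted p = 0.173). It was -0.41 in batch 1 and 0.72 in batch 2. The patterns most like Car8 were Dtx3l (0.84), Tmem14c (0.84) and Acsl5 (0.84), and those most like Car13 were Cldn16 (0.76), Chrng (0.75) and AA386476 (0.73). For Dtx3l and Acsl5 the value without B6 control 1 was 0.76 and 0.75, where Cyp51, of cholesterol synthesis, was among the 3 nearest in place of Acsl5 (0.77).

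Another 9 pairs passed by r alone, a count with no share over all genes beside it, since none was computed for r. Car4 and Car7 had an r of 0.50 and 0.59 with astrocytes, Car11 and Car12 of 0.54 and 0.56 with interneurons, Car3 of 0.55 with endothelium and pericytes and Car2 of -0.54 with adipocytes. Without B6 control 1 the adjusted p of these 6 lay between 0.135 and 0.241. Car3 had an r of -0.57 with cortical and thalamic neurons, and Car12 and Car10 of 0.62 and -0.51 with microglia, which without B6 control 1 were -0.62, 0.51 and -0.62 (adjusted p = 0.0272, 0.0407 and 0.0152). Conversely, 3 pairs passed by rho only once B6 control 1 was left out, Car4 and Car7 with spiny neurons (-0.61 and -0.64) and Car10 with microglia (-0.56), each with an adjusted p of 0.0368. Over all 28 arrays these 3 had a rho of -0.43, -0.34 and -0.49, and 5.46%, 10.0% and 0.877% of all genes had one as low.

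**Figure D4:**
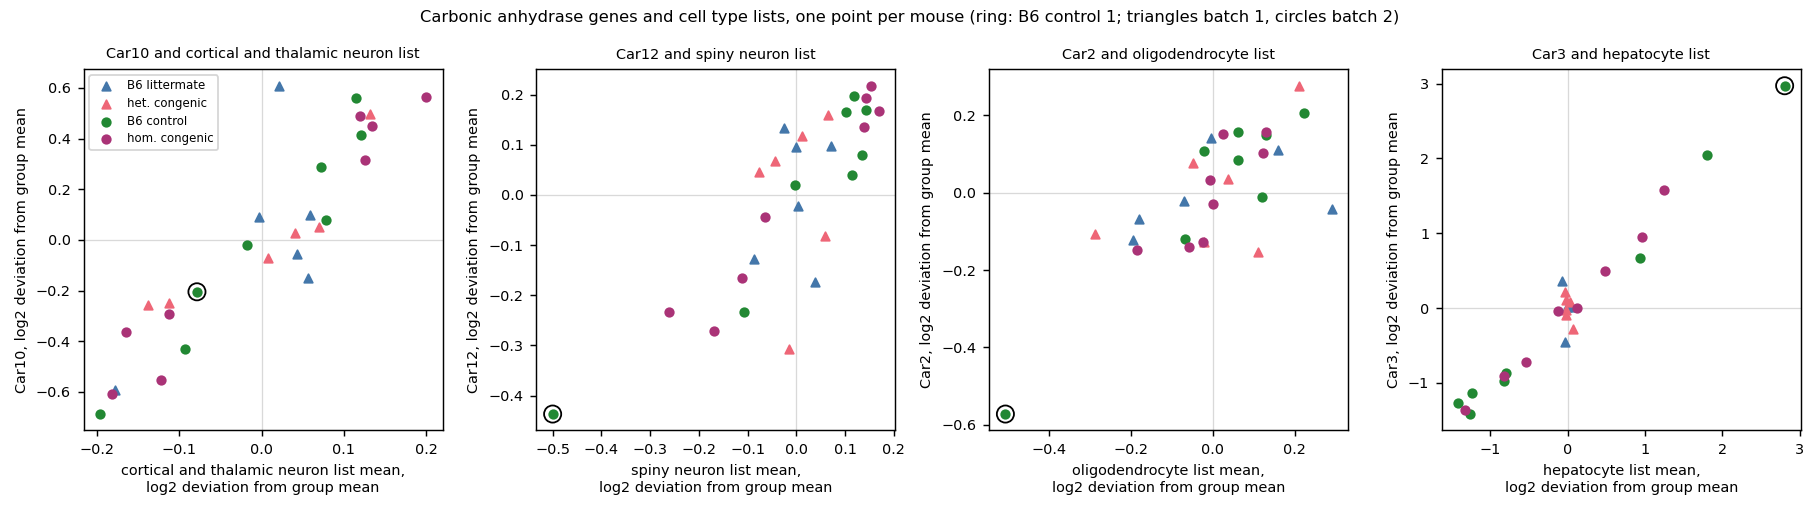
Log2 deviations from the group mean of Car10, Car12, Car2 and Car3 (vertical axes) against those of the list they followed (horizontal axes), 1 point a mouse, triangles for batch 1 and circles for batch 2, with a ring around B6 control 1. Points of Car3 in batch 1 crowd near 0 on the hepatocyte axis, while those of batch 2 spread along a line (rho 0.99).

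These lists did not differ with genotype beyond the spread between mice. Over 13 lists in 2 batches, 0 of 26 differences had an adjusted p under 0.05 (2-sided exact permutation tests). The smallest was that of endothelial and pericyte markers in batch 2, at -0.06 log2 (exact permutation p = 0.0328, adjusted p = 0.853). The cortical and thalamic list differed by -0.03 log2 in batch 1 (exact permutation p = 0.576) and by 0.04 in batch 2 (exact permutation p = 0.578). The hepatocyte list differed by 0.31 in batch 2 (exact permutation p = 0.641), and by 0.71 without B6 control 1 (exact permutation p = 0.218).

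The genotype fit was also made with the means of the oligodendrocyte, spiny neuron, cortical and thalamic, and hepatocyte lists as covariates, a setting chosen after seeing the data. The SE of Car10 in carriers against B6 went from 0.142 to 0.062 and its difference to 0.09 log2, with a 95% interval of -0.04 to 0.21. Since Car10 had a rho of 0.89 with 1 of these lists in the same arrays, a smaller SE followed from that choice. The narrower interval was therefore not used to exclude an effect size. Without B6 control 1 the difference of Car10 was 0.09 (-0.05 to 0.23). Car4 gave -0.02 (SE 0.055), close to its first value, and -0.04 without B6 control 1. The SE moved less for Car4 (from 0.062), Car13 (0.044 to 0.038) and Car14 (0.053 to 0.044) than for Car10.

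For 2 of the 10, both off the stretch, the interval no longer held 0, that is the unadjusted p was under 0.05, as it was for 10.1% of all genes in this setting. Without B6 control 1 this was so for 1 of 10, Car3, against 6.38% of all genes. Car3 gave -0.21 log2 (SE 0.071, limma, unadjusted p = 0.00686, adjusted p = 0.309), and -0.20 (adjusted p = 0.710) without B6 control 1. Its SE went from 0.375 to 0.071. Car3 had a rho of 0.86 with the hepatocyte list in the same arrays, so a smaller SE followed from that choice, as for Car10. That list was fixed with the liver transcripts of batch 2 already known, so the Car3 interval is a description and no independent test. Car8 gave -0.14 (SE 0.050, limma, unadjusted p = 0.00805, adjusted p = 0.318), and -0.08 (adjusted p = 0.833) without B6 control 1. With the lists 0 of 10 members had an adjusted p under 0.05 (0.135% of all genes), and 0 of 10 without B6 control 1 as well (0.0251%).

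**Figure D5:**
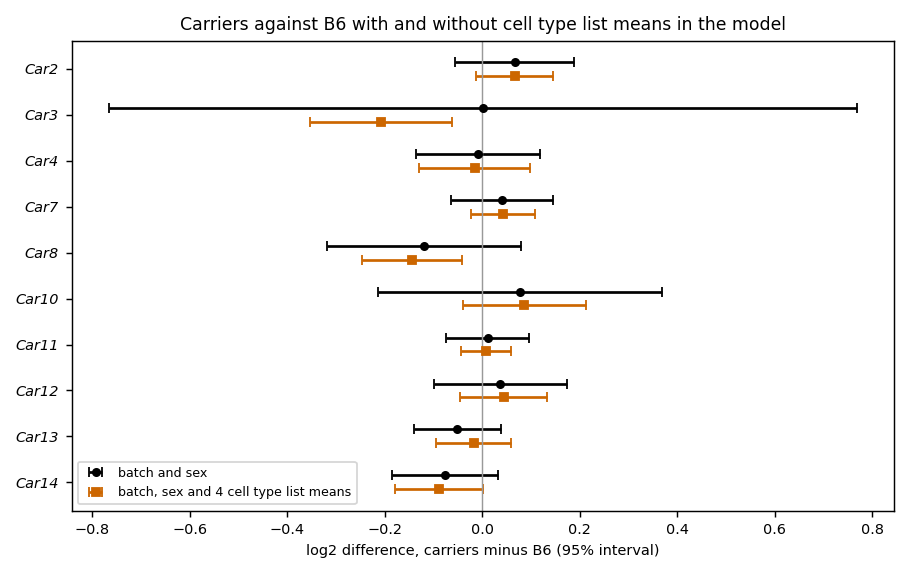
Log2 difference of carriers minus B6 with its 95% interval (horizontal axis) for the 10 genes, from the model with batch and sex (circles) and with 4 cell type list means added (squares). The interval of Car10 narrows from -0.21 to 0.37 down to -0.04 to 0.21, and that of Car3 from -0.77 to 0.77 down to -0.35 to -0.06. Both genes followed 1 of the added lists in these same arrays, so the narrowing came with the choice of lists.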

How the data were processed

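The log2 values of the deposited tables come from Mouse Gene 1.0 ST arrays, summarised per transcript cluster by RMA. Affymetrix Expression Console was used, per the submitters' processing notes. Probes over coding variants from 84 to 96 Mb of build 37 were masked and batch effects removed with ComBat by the authors, as their notes state. P-values and q-values in the deposited table are the authors' own. Values were used as deposited, and medians per array lay between 7.47 and 7.54. Of 35556 clusters 21797 carry 1 gene symbol, 1613 several and 12146 none, which gave 19946 genes.

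Genes were tested with limma 3.58.1 in R 4.3.3 (2-sided, Benjamini-Hochberg, threshold 0.05). Carriers against B6 had batch and sex as terms, and the other comparisons came from a model of 4 group means and sex. Each list mean for the relations averages its measured markers without members. The number of arrays limits the precision. The stretch was placed on chromosome 11 from knowledge of the study and by gene order in GRCm38.p6, so it is not tied to coordinates of build 37. The fits and relations were tested on simulated data. The 10 members are described in every comparison, with the 3 genes of most similar pattern by rho for each. Of the 3 genes of smallest p in each pathway list, those under an unadjusted p of 0.05 in a genotype comparison are named. For the other carbonic anhydrases all 3 are named. Members, lists and rules were chosen with earlier results of these data known. Where nothing says that arrays are independent beyond separate mice, p-values measure the spread between these mice. Promoter sequences are from RefSeq.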

Additional observations from a re-analysis of the deposited data

Results flagged for a closer look

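An array lay far from the others of its group for 3 of the 10 genes in 4 of the 40 gene and group combinations, by Dixon's test at 95%, which chance passes in about 1 of 20. In B6 control 1, Car8 was at 9.29 log2 against 8.16 for the next highest, Car2 at 10.43 against 10.88 for the next lowest, and Car11 at 11.86 against 12.20 for the next lowest. These 3 of the 4 fell on the array that was also highest of its group in hepatocyte markers (11.07) and lowest in spiny neuron (10.90) and oligodendrocyte markers (10.16). Their part in these values was not tested. In B6 littermate 4, Car11 was at 12.12 against 12.25 for the next lowest, just past the test's critical value.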

How the results depend on the processing

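Under all settings tried, 0 of 10 members had an adjusted p under 0.05 in every comparison. The settings were no sex term, age, the replicate number as a block, another quantile normalization, a mean of at least 7 log2 (which leaves out Car13), the mean over clusters, array weights, number of A/J copies, the methods' t-test, each batch alone, each array left out and the list means. Same-numbered arrays correlated from -0.07 to 0.17 in batch 1. In batch 2, 6 of 8 pairs lay between 0.21 and 0.69 and the other two at -0.07 and -0.52. In batch 2 same-numbered mice had the same sex, and numbers 1 to 4 were the older mice of both groups. The part of sex and age in these correlations was not tested. Since not every pair correlated and no label says that numbers match mice, they were not taken as paired. With the replicate number as a block the count was also 0, Car13 in homozygous mice had an unadjusted p of 0.031 (limma adjusted p = 0.697), while the all-gene calls went from 4 to 1 for carriers and from 1 to 3 for homozygous mice. The count of pairs of a member and a list past the threshold was 11, with 13 without B6 control 1 (10 in both) and 10 without the 2 farthest arrays.

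Signs of small differences turned as follows, and the cause was not tested. With age, Car12 in homozygous mice was 0.0021. After another quantile normalization Car3 in carriers was -0.029. With array weights the values in carriers were -0.0031 for Car7, -0.0018 for Car10 and -0.016 for Car11. In homozygous mice they were -0.013 for Car7, 0.016 for Car8, -0.014 for Car10 and -0.033 for Car11. With the list means Car3 was -0.21 in carriers and -0.17 in homozygous mice and Car12 0.010 there. With B6 control 1 also left out these were -0.20, -0.14 and 0.053.

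Leaving out each array in turn gave, in carriers, -0.13 to 0.23 for Car3, -0.036 to 0.014 for Car4 and -0.020 to 0.026 for Car11. In heterozygous mice it gave -0.026 to 0.076 for Car4, -0.013 to 0.057 for Car7, -0.044 to 0.21 for Car10, -0.029 to 0.019 for Car11 and -0.0072 to 0.069 for Car13. In homozygous mice it gave -0.016 to 0.090 for Car2, -0.045 to 0.61 for Car3, -0.00043 to 0.083 for Car7, -0.21 to 0.012 for Car8, -0.039 to 0.043 for Car11 and -0.072 to 0.019 for Car12.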

Other observations

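With the 4 list means as covariates, a setting added after the data were seen, limma called 27 genes among all 19946 in carriers and 51 in homozygous mice, against 4 and 1 without them. With B6 control 1 left out as well the counts were 5 and 2.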
